A study of Rattus norvegicus with 6 samples.

Results

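The enzymes described here are the glutathione S-transferases (GSTs), their microsomal relatives (MGSTs), the carboxylesterases, the aldehyde dehydrogenases (ALDHs) and the UDP-glucuronosyltransferases (UGTs). They were picked by gene symbol, with earlier results of these data known. A gene was a member if its symbol on the array platform began with Gst followed by a class letter, or with Ces, Ugt or Aldh in the numbered families, or was one of Mgst1 to Mgst3. This gave 52 members among the 15037 genes measured: 20 GSTs, 3 MGSTs, 11 carboxylesterases, 11 ALDHs and 7 UGTs. The cells were airway basal cells, the stem cells of the tracheal lining, scraped from the trachea of Sprague Dawley rats. The animals were wild-type males, 12 weeks old, with a body weight of 370 ± 39 g. Cells of 3 lines, each pooled from 3 rats, went at isolation into EpiX or into BEGM, which are media for growing epithelial cells, and RNA was taken after 8 days. One Affymetrix array was run per culture, giving 3 EpiX arrays and 3 BEGM arrays. The arrays are numbered by the sample number in the labels, and a shared number was read as a shared line, which the labels do not state outright. That number is the one in the source names: the sample titles number the arrays called 2 here as 3 and give those called 3 here no number.

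These enzymes clear reactive and foreign compounds. GSTs join glutathione to electrophiles such as products of lipid peroxidation, and carboxylesterases cut esters and amides in many drugs, inhaled esters and lipids. ALDHs oxidise aldehydes to acids, and the Aldh1a enzymes among them make retinoic acid, while UGTs attach glucuronic acid to lipophilic compounds so that they can be excreted. In the airway such enzymes are best known from secretory club cells.

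All 6 arrays carried high signal of the basal keratin Krt14, at 16.75, 16.79 and 17.13 (log2 signal) on EpiX arrays 1, 2 and 3, against 16.85, 16.38 and 16.60 on BEGM arrays 1, 2 and 3. The log2 difference of Krt14, EpiX minus BEGM, was 0.29, while other basal markers differed more and in both directions, as given below. Krt5 had no named probe set and was not analysed here. Over all genes, which are not independent replicates, BEGM array 1 correlated with the EpiX arrays at 0.982 to 0.985, with BEGM array 2 at 0.986 and with BEGM array 3 at 0.977. BEGM arrays 2 and 3 correlated with the EpiX arrays at 0.953 to 0.971 and with each other at 0.99, so array 1 was the BEGM array nearest to EpiX. Members and list counts whose call changed without it are given both ways. That array was singled out for its nearness to EpiX, and without it limma calls rose from 869 to 2089 of all 15037 genes. Calls gained without it are therefore favoured by this choice and are no separate support. The median over genes ran from 6.90 to 6.93 on the EpiX arrays and from 6.98 to 7.13 on the BEGM arrays. Precision is limited by having 3 arrays per medium.

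The 4 carboxylesterase genes with the clearest rises belong to 1 subfamily, and their promoters are shown first because parts of them align with each other. Each line gives the 250 bases before the gene's start in RefSeq (rat build GRCr8), read 5′ to 3′ along the gene, and the capitals mark the longest run of bases that all 4 share.
Ces2g (chr19:49856420-49856669, plus strand): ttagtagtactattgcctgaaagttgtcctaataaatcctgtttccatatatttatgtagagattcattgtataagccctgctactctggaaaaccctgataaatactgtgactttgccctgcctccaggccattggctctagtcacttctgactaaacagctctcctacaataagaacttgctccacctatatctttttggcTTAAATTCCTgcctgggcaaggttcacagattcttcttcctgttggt
Ces2c (chr1:270376951-270377200, plus strand): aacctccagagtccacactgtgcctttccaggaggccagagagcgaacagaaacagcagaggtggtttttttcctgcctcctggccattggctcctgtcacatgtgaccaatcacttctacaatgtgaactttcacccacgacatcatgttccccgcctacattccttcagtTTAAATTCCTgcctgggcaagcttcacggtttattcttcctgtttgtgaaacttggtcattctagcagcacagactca
Ces2b (chr19:80794-81043, minus strand): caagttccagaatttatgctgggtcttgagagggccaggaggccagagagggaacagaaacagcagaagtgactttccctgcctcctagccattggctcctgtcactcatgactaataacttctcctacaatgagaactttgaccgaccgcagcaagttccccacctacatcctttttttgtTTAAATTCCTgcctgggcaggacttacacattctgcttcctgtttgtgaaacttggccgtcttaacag
Ces2 (chr19:62579-62828, minus strand): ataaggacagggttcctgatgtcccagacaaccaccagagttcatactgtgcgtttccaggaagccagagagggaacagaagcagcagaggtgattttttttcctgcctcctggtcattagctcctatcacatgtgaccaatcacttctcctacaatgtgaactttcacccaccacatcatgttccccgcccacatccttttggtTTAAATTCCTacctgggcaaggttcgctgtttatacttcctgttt

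The shared run TTAAATTCCT is 10 bases long and begins 45 to 78 bases before the annotated start. It was found on either strand in 25 of 27457 RefSeq promoter windows of 250 bases, the 4 printed here included. Since it was picked as a run that these 4 share, its presence in them was fixed beforehand. A link between the run and the rises was not tested. In the best local alignment of each pair among these 4, 128 to 217 bases were aligned with 82.2% to 89.9% identity, the closest pair being Ces2 and Ces2c. The identifier of the Ces2 probe set names chromosome 1, as that of Ces2c does, while RefSeq places Ces2 on chromosome 19. It was the 1 member whose identifier and RefSeq chromosome differed (50 were the same and Gstm5 had no code), so the promoter printed for Ces2 may not belong to the locus the probe set reads. Ces2h, another member of the subfamily, aligned with these 4 over 9 to 29 bases only. Ces2j aligned with them over 73 to 200 bases at 73.6% to 76.9% identity, and Ces2e over 65 to 134 bases at 76.9% to 82.1%.

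Array signal for the RNA of 9 of the 52 enzymes was called higher in EpiX than in BEGM, and none was called lower. The 9 were the carboxylesterases Ces2g, Ces2b, Ces2c and Ces2, the transferases Gsta4, Gstm2, Gstm4 and Gstm7, and the membrane-bound transferase Mgst1. Apart from Gstm7, which was near background in BEGM, their rises ran from 2.20-fold for Gstm4 to 8.83-fold for Ces2g. On all 6 arrays 4 of the 9 (Ces2, Ces2b, Gstm4 and Gstm7), and 32 of all 52 members, lay below the 95th percentile of the array's negative-control probe sets, which was 9.22 to 10.08 on the EpiX arrays and 8.97 to 9.57 on the BEGM arrays. No ALDH and no UGT was called by limma. At an unadjusted p under 0.05 there were 3 of 11 ALDHs, 0 of 7 UGTs and 3377 of all 15037 genes. Calls were made at an adjusted p under 0.05 (Benjamini-Hochberg, over all 15037 genes). Members called higher made up 17.3% of the 52, against 2.63% of all genes tested. Of all genes tested, 3.15% were called lower and 5.78% in either direction.

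**Figure D1:**
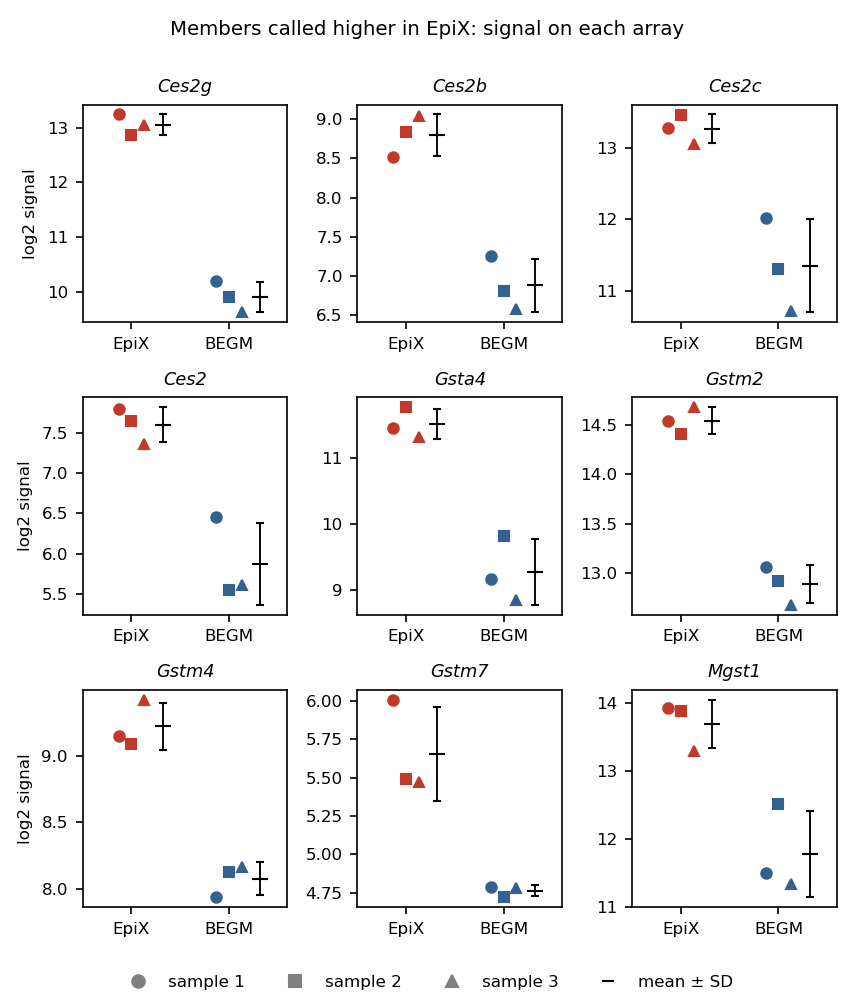
Log2 signal of the 9 members called higher in EpiX, with EpiX to the left of BEGM in each panel, 1 point per array (marker shape gives the sample number) and the mean ± SD of 3 arrays in black; the vertical axes differ between panels and do not start at 0. In each panel the lowest EpiX array lies above the highest BEGM array.

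The family that moved most was the Ces2 carboxylesterases, of which 4 of 7 measured genes rose and 3 were not called. Carboxylesterases of this subfamily sit in the endoplasmic reticulum and are known in other mammals for cutting esters with a small acyl group, including several prodrugs. Ces2g was at 13.24, 12.86 and 13.05 on EpiX arrays 1, 2 and 3, against 10.19, 9.90 and 9.63 on BEGM arrays 1, 2 and 3. The EpiX arrays lay within 0.38 log2 units of each other, all above the BEGM arrays. The difference was 3.14 ± 0.19 (SE, n = 3 per medium; limma adjusted p = 0.00138), or 8.83-fold with a 95% confidence interval of 6.46 to 12.1.

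Ces2c was at 13.28, 13.46 and 13.06 on the EpiX arrays, against 12.02, 11.31 and 10.72 on the BEGM arrays. Here BEGM array 1 was the BEGM array nearest to EpiX, and the groups did not overlap. The rise of Ces2c was 1.92 ± 0.32 on the log2 scale (SE; adjusted p = 0.0215), or 3.78-fold. Ces2b was at 8.52, 8.83 and 9.04 on the EpiX arrays, against 7.25, 6.81 and 6.58 on the BEGM arrays, a rise of 1.92 ± 0.22 (SE; adjusted p = 0.00816). Ces2 was at 7.79, 7.65 and 7.36 on the EpiX arrays, against 6.46, 5.55 and 5.61 on the BEGM arrays, a rise of 1.73 ± 0.27 (SE; adjusted p = 0.0177). For Ces2, as for Ces2b and Ces2c, the highest BEGM value was that of array 1, and no EpiX value fell within the BEGM range. The Ces2 probe set has a chromosome 1 identifier, as that of Ces2c does, so it may read another copy than Ces2. Counts and medians of Ces2 genes take it as a separate gene, which was not tested.

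The other 3 Ces2 genes had positive differences that did not pass. Ces2h was at 7.31, 6.54 and 5.52 on the EpiX arrays, against 4.48, 5.10 and 4.82 on the BEGM arrays. Its groups did not overlap, but the EpiX arrays spread over 1.79 log2 units, and the difference of 1.66 ± 0.43 (SE) had an adjusted p of 0.0763. Without EpiX array 3 it was called. All 3 BEGM values lay below the negative-control median of their array. Ces2e, at 3.72 to 3.80 on the EpiX arrays and 3.52 to 3.59 on the BEGM arrays, was dim in both media, and Ces2j differed by 0.32 ± 0.23. Over the 7 Ces2 genes the median difference was 1.73, against 0.0 over all genes tested.

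The carboxylesterases outside the Ces2 subfamily showed differences near 0. Ces1a and Ces1c, of the subfamily best known from liver, differed by -0.08 and 0.09, and Ces4a and Ces5a by 0.02 each. Ces5a, known as a secreted esterase of the epididymis and kidney in other mammals, had overlapping groups. These 4 genes were dim on every array, at 5.77 or lower. The median of the negative-control probe sets, which on this kind of array target introns, was 5.24 to 5.56 on the EpiX arrays and 5.11 to 5.29 on the BEGM arrays.

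Among the 20 cytosolic, mitochondrial and peroxisomal GSTs, 4 rose, none was called lower and 16 did not pass, with a median difference of 0.27. Gsta4, an alpha-class enzyme with a preference for 4-hydroxynonenal, a product of lipid peroxidation, rose most. It was at 11.45, 11.77 and 11.32 on the EpiX arrays, against 9.16, 9.82 and 8.84 on the BEGM arrays. Every EpiX array lay above every BEGM array, and the difference was 2.24 ± 0.27 (SE, n = 3 per medium; adjusted p = 0.00876), or 4.73-fold with a 95% confidence interval of 3.04 to 7.37.

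The mu-class genes lie side by side in 1 cluster, in the RefSeq order Gstm5, Gstm6l, Gstm7, Gstm6, Gstm3l1, Gstm3, Gstm2, Gstm1 and Gstm4. All but Gstm3l1 were measured, and 3 of these 8 rose. Gstm2 was at 14.54, 14.41 and 14.68 on the EpiX arrays, against 13.06, 12.92 and 12.68 on the BEGM arrays, a tight pair of groups. Its rise was 1.66 ± 0.16 (SE; adjusted p = 0.0047), or 3.16-fold. Gstm4 was at 9.15, 9.09 and 9.42 on the EpiX arrays, against 7.94, 8.13 and 8.17 on the BEGM arrays, and rose by 1.14 ± 0.15 (SE; adjusted p = 0.012). Gstm7 was at 6.01, 5.49 and 5.47 on the EpiX arrays, against 4.79, 4.72 and 4.78 on the BEGM arrays, and rose by 0.89 ± 0.18 (SE; adjusted p = 0.0391). All its BEGM values and that of EpiX array 3 lay below the negative-control median of their array, so no fold is given. It was the called member with the highest adjusted p, and the uncalled member next to it was Ces2h.

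Gstm1 lies between Gstm2 and Gstm4 in the cluster and was not called. It was at 9.19, 9.86 and 11.01 on the EpiX arrays, against 8.53, 10.68 and 11.10 on the BEGM arrays. In both media array 1 was lowest and array 3 highest, so the groups overlapped almost fully, and the difference was -0.08 ± 0.73 (SE). Median centring of the arrays turned the sign, to 0.05. The other mu-class genes Gstm3, Gstm5, Gstm6 and Gstm6l differed by -0.32 to 0.38 and were not called.

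Gstp1, the pi-class enzyme and a main GST of airway epithelium, was at 15.39, 15.26 and 15.35 on the EpiX arrays, against 13.97, 14.65 and 15.07 on the BEGM arrays. The EpiX arrays were almost level and lay above all BEGM arrays, with BEGM array 3 the nearest. The difference of 0.77 ± 0.27 (SE) did not pass (adjusted p = 0.154). Gstp3, the other pi-class member, was dim, at 3.76 to 3.92 on the EpiX arrays and 3.68 to 3.92 on the BEGM arrays.

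Gsta1, an alpha-class enzyme abundant in rat liver, gave the largest negative difference of any member. It was at 8.70, 8.76 and 8.22 on the EpiX arrays, against 8.26, 11.77 and 13.05 on the BEGM arrays. BEGM arrays 2 and 3 were far above every EpiX array, and BEGM array 1 lay at the EpiX level. With all arrays the difference of -2.47 ± 1.1 (SE) did not pass (adjusted p = 0.247), and without BEGM array 1 it was -3.85 (adjusted p = 0.00174). The other alpha-class genes Gsta3, Gsta4l1 and Gsta6 differed by 0.20, 0.40 and -0.33 and were not called.

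Gstt2, a theta-class enzyme, was at 10.80, 9.92 and 8.63 on the EpiX arrays, against 8.87, 8.21 and 6.47 on the BEGM arrays. In both media array 1 was highest and array 3 lowest, and each EpiX array exceeded the BEGM array of its number by 1.71 to 2.16. The groups overlapped, and the difference of 1.93 ± 0.73 (SE) was not called (adjusted p = 0.179). With the sample number as a block it was called (adjusted p = 0.00563). Gstt1 and Gstt4, the other theta-class genes, differed by 0.30 and 0.25. Gstk1, the kappa-class enzyme of mitochondria and peroxisomes, differed by -0.04 ± 0.26, and Gstz1, which acts in tyrosine breakdown, by -0.26 ± 0.25, and neither was called.

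Of the 3 microsomal transferases Mgst1 rose and Mgst2 and Mgst3 did not pass. Mgst1 sits in the endoplasmic reticulum and outer mitochondrial membrane, where it conjugates glutathione and reduces lipid peroxides. It was at 13.93, 13.88 and 13.29 on the EpiX arrays, against 11.49, 12.51 and 11.33 on the BEGM arrays, with no overlap. The rise was 1.92 ± 0.34 (SE; adjusted p = 0.0257), or 3.80-fold with a 95% confidence interval of 2.16 to 6.66. Mgst2, which can form leukotriene C4, was at 14.10, 14.18 and 15.24 on the EpiX arrays, against 13.14, 14.23 and 14.63 on the BEGM arrays. Its groups overlapped, and its difference was 0.51 ± 0.45 (SE). Mgst3 differed by 0.30 ± 0.38, with BEGM array 3 low at 10.64 and the other 5 arrays at 11.63 to 12.23.

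**Figure D2:**
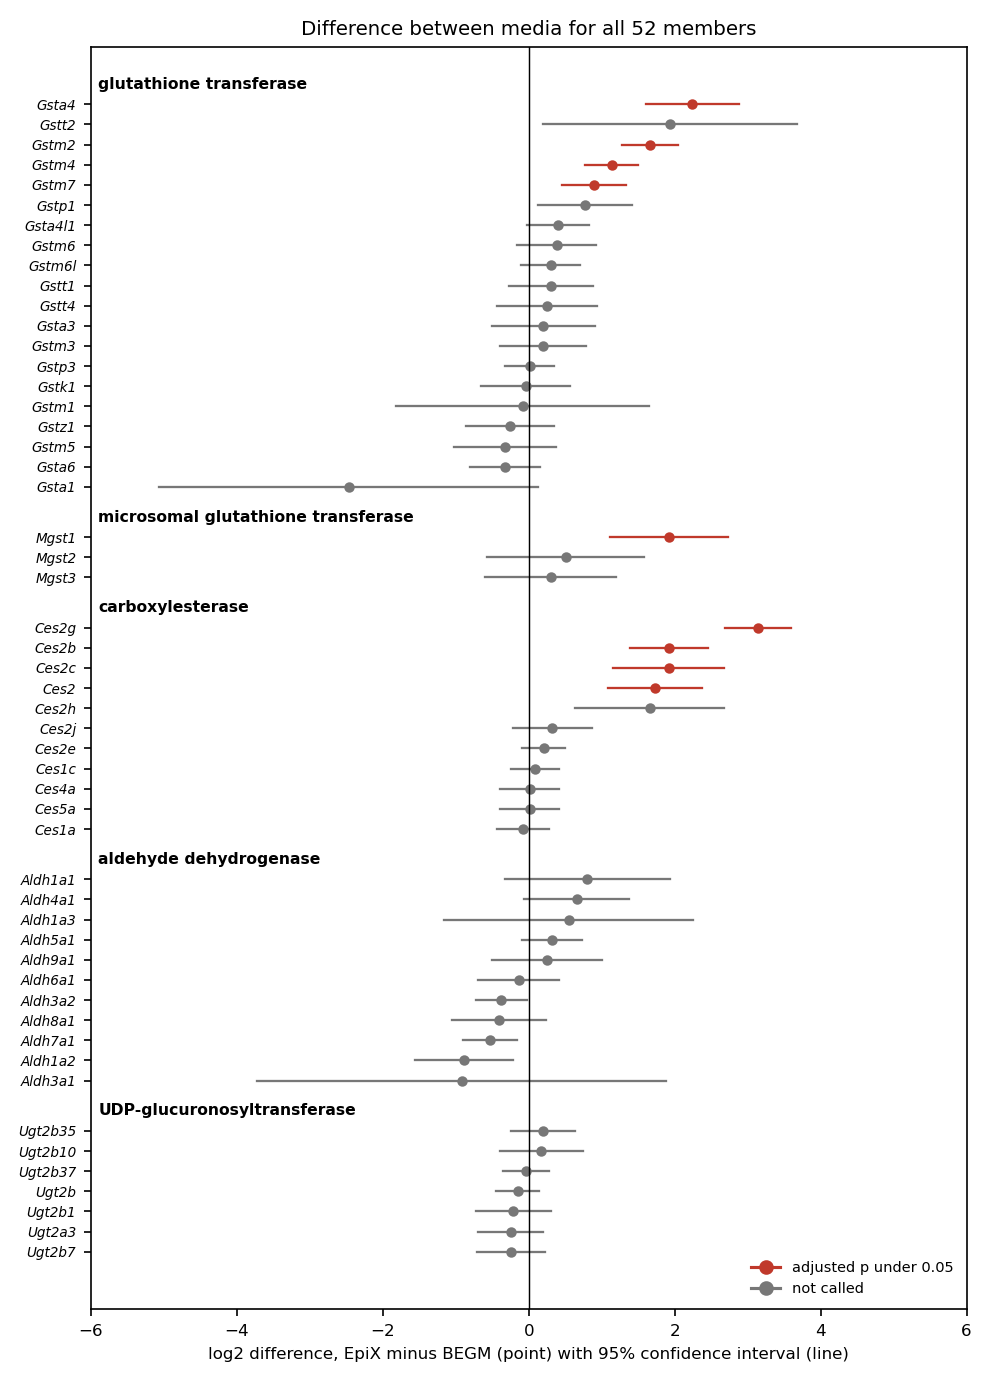
Log2 difference, EpiX minus BEGM, for all 52 members by family, with the limma 95% confidence interval as a line; red marks an adjusted p under 0.05 over all genes and grey the rest. The 9 red members all lie to the right of 0, and the widest intervals are those of Aldh3a1 and Gsta1.

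The ALDHs as a family did not move one way: 5 of 11 had positive and 6 negative differences, the median was -0.13, and none was called. All EpiX arrays lay below all BEGM arrays for 3 of the 11, against 14.5% of all genes tested. These 3 were Aldh7a1 (-0.53 ± 0.16, SE; adjusted p = 0.106), an enzyme of lysine breakdown, Aldh3a2 (-0.38 ± 0.15; adjusted p = 0.185), which oxidises fatty aldehydes, and Aldh1a2. Aldh9a1, an enzyme of carnitine synthesis and the ALDH whose probe set gave the highest signal, was at 12.79, 13.18 and 12.41 on the EpiX arrays, against 13.19, 12.23 and 12.22 on the BEGM arrays, which overlapped (0.25 ± 0.32).

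The 3 retinaldehyde dehydrogenases differed from each other in pattern. Aldh1a2 was at 4.18, 4.59 and 4.51 on the EpiX arrays, against 4.70, 5.70 and 5.55 on the BEGM arrays. It was dim in both media, did not overlap, and differed by -0.89 ± 0.28 (SE; adjusted p = 0.123). It was called lower with the sample number as a block (adjusted p = 0.0457) and without BEGM array 1 (-1.20, adjusted p = 0.0088). Aldh1a3 was at 11.14, 10.46 and 10.43 on the EpiX arrays, against 11.89, 9.62 and 8.87 on the BEGM arrays. BEGM array 1 was its highest array and BEGM array 3 its lowest, so that the difference was 0.55 ± 0.72 with all arrays, 1.43 without BEGM array 1 (adjusted p = 0.027) and -0.08 without BEGM array 3. Aldh1a1 was at 5.55, 4.86 and 6.92 on the EpiX arrays, against 4.90, 5.07 and 4.93 on the BEGM arrays, so the high value was that of EpiX array 3, and its difference did not pass (adjusted p = 0.381).

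Aldh3a1, which protects the cornea and is inducible by dioxin in rat liver, had the widest spread of any member. It was at 9.28, 7.87 and 7.88 on the EpiX arrays, against 6.95, 8.83 and 12.02 on the BEGM arrays. The BEGM arrays covered 5.07 log2 units and enclosed all EpiX arrays, and the difference of -0.92 ± 1.18 (SE; adjusted p = 0.714) became 0.46 without BEGM array 3. Of the ALDHs of amino acid breakdown, Aldh4a1, which acts on proline, differed by 0.66 ± 0.30, Aldh5a1, which acts in GABA breakdown, by 0.32 ± 0.17, and Aldh6a1, which acts on valine, by -0.13 ± 0.23. Aldh8a1 was dim and differed by -0.41 ± 0.27.

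**Figure D3:**
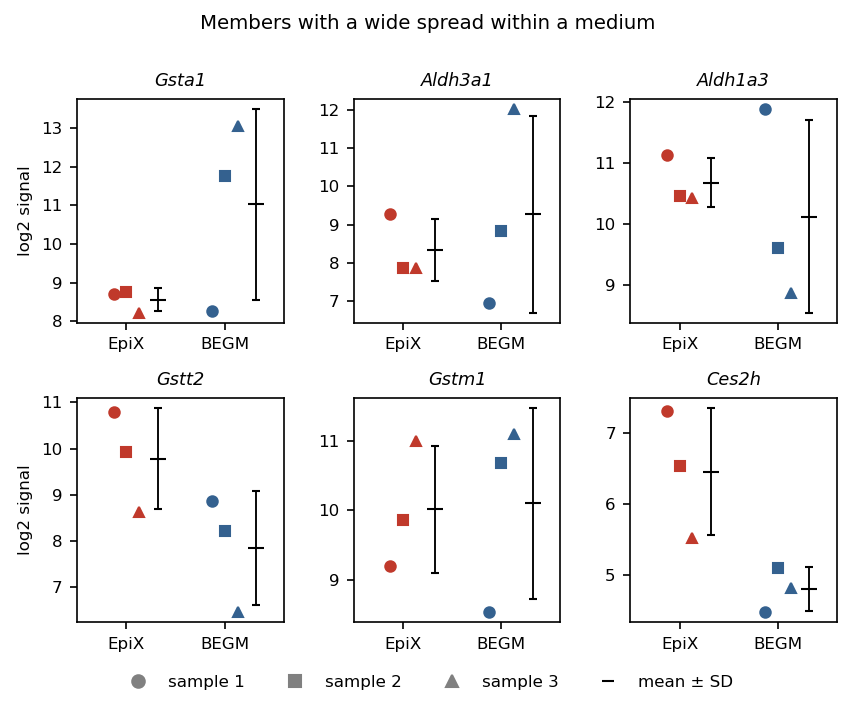
Log2 signal of 6 members that were not called with all arrays, with EpiX to the left of BEGM, 1 point per array and the mean ± SD of 3 arrays in black; the vertical axes differ and do not start at 0. BEGM arrays cover 4.79 log2 units for Gsta1 and 5.07 for Aldh3a1, while the array numbers keep 1 order in both media for Gstt2 and Gstm1.

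The spread between replicates was larger in BEGM than in EpiX for 32 of the 52 members (61.5%), against 61.9% of all genes. Without BEGM array 1, limma called 10 members higher and 2 lower, against 6.57% and 7.32% of all genes in that fit. All 9 members called with every array were among the 10, joined by Aldh1a3, and the 2 lower ones were Gsta1 and Aldh1a2. With the sample number as a block, 10 members were called higher and 1 lower, against 3.94% and 4.39% of all genes. Other arrays lowered the counts when left out. Dropping EpiX array 1 gave 4 called members, dropping EpiX array 2 gave 2 (Ces2g and Gstm2) and dropping BEGM array 2 gave 5. In these fits 1.13%, 0.672% and 1.28% of all genes were called, so the counts over all genes fell as well. Dropping both arrays of number 1 gave 9 called members, 7 of the original 9 with Gsta1 and Aldh1a2 lower, against 8.98% of all genes. Dropping both arrays of number 3 gave 4 called members, against 1.76% of all genes. Leaving out both arrays of number 2 gave no limma call among all 15037 genes, and so none among the members. In that fit 13 of 52 members and 1582 of all genes were at an unadjusted p under 0.05. Across all these fits the differences of the 9 members stayed positive.

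The UGTs gave no measurable pattern. The 7 measured genes belong to the Ugt2 family, which in liver conjugates steroids and bile acids, and 6 of them had mean levels below the median of the negative controls in both media. Ugt2b10, the exception, was at 6.08, 6.46 and 5.73 on the EpiX arrays, against 6.21, 5.90 and 5.62 on the BEGM arrays, which overlapped. Its difference was 0.17 ± 0.24 (SE). Ugt2a3, Ugt2b, Ugt2b1, Ugt2b35, Ugt2b37 and Ugt2b7 differed by -0.25 to 0.19. None of the 8 Ugt1a genes in RefSeq had a named probe set, so that branch of the family was not analysed here.

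Of all 52 members, 12 had every EpiX array above every BEGM array (23.1%, against 13.5% of all genes), and 4 had every EpiX array below (7.69%, against 14.5%). The 12 were the 9 called members with Ces2e, Ces2h and Gstp1. Below were the 3 ALDHs and Ugt2b, which was dim at 3.68 to 3.76 on the EpiX arrays and 3.84 to 3.93 on the BEGM arrays.

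Close copies limit how far single genes can be told apart. RefSeq lists 80 protein-coding genes that the symbol rule takes in, and 28 of them had no named probe set, among them Ces2f, Ces2i, Gstm3l1, Gsta2 and Gsta5. Every member was read by 1 probe set, and the transcripts that the platform annotation lists for it belong, where RefSeq holds them, to that gene alone. Probe sets listing more than 1 gene symbol had been left out, so this does not show that copies are read apart. Probe sequences were not used here, so the share of signal that a Ces2, Gstm, Gsta or Ugt2b probe set takes from a copy was not measured. In the mu cluster Gstm2 differed by 1.66 and Gstm1 by -0.08, both well above the negative-control median.

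A pair of promoter motifs was counted in the same 250-base windows, on both strands. The core of the antioxidant response element, TGACNNNGC, through which NRF2 acts, was present in 7 of the 47 members with a RefSeq promoter (14.9%) and in 10.2% of all promoters. The 7 included Ces2g and Gstm7 of the 9 called members. The core of the xenobiotic response element, GCGTG, to which the aryl hydrocarbon receptor binds, was present in 12 of 47 members (25.5%) and in 27.2% of all promoters, and the called members among them were Gsta4 and Gstm4. The motifs can overlap, since the letters of the second, read on the other strand, can fall inside the first. A match describes these letters only.

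Genes that supply or remove what these enzymes use were read from 10 lists holding 119 genes, of which 105 were measured. Of these, 11 rose and 4 fell by limma, while 2.63% of all genes were called higher and 3.15% lower. Those shares also stand beside the counts of single lists below. They were 3.94% and 4.39% with the block, and 6.57% and 7.32% without BEGM array 1. Dropping BEGM array 1 raised the number of list genes called to 29. It was 8 when BEGM array 3 was dropped, 5 for EpiX array 3, 2 for BEGM array 2 and 1 for EpiX array 1 or EpiX array 2. The share of all genes called moved the same way, at 13.9% without BEGM array 1, 3.62% without BEGM array 3 and 2.78% without EpiX array 3. Glutathione synthesis and use had a median difference of 0.43 over 16 genes, with 3 rises and no fall. The 3 were Slc7a11 (1.94 ± 0.38, SE; adjusted p = 0.0333), the cystine carrier that feeds glutathione synthesis, its partner Slc3a2 (0.75 ± 0.17; adjusted p = 0.0498), and Gsr (1.11 ± 0.24; adjusted p = 0.0456), which regenerates glutathione. Slc7a11 was at 12.85, 12.53 and 13.50 on the EpiX arrays, against 11.68, 10.39 and 11.00 on the BEGM arrays, with no overlap. Slc3a2 was not called with the sample number as a block (adjusted p = 0.0744) or without BEGM array 1 (adjusted p = 0.0558). Without BEGM array 1 this list had 5 rises (Slc7a11, Gsr, Gclc, Ggct and Chac1) and 1 fall, that of the lipid peroxidase Gpx4 (adjusted p = 0.00751).

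Conjugates leave the cell through ABC transporters, and here 2 of 8 measured genes rose and 1 fell, with a median of -0.03. Abcc4 rose by 1.58 ± 0.34 and Abcc3 by 1.16 ± 0.23, the second of which was not called with the block (adjusted p = 0.0588). Abcb1b was called lower with the block (adjusted p = 0.0276), and Abcg2 fell by 1.40 ± 0.28 (SE). Abcg2 was at 7.51, 8.01 and 7.67 on the EpiX arrays, against 8.95, 8.73 and 9.73 on the BEGM arrays, with no overlap. Of 6 genes of glucuronic acid supply 1 fell, the nucleotide sugar carrier Slc35d2 (-1.15 ± 0.16; adjusted p = 0.0125), and none rose, with a median of 0.25.

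Among other conjugating enzymes 1 of 11 measured genes rose, the sulfotransferase Sult1b1 (2.88 ± 0.63, SE; adjusted p = 0.0466), and the median was 0.29. The largest difference in that list was the negative one of Papss2, which makes the sulfate donor and was at 4.76, 5.40 and 5.47 on the EpiX arrays, against 6.86, 8.34 and 10.76 on the BEGM arrays. Its groups did not overlap, and its difference of -3.44 ± 0.89 (SE) did not pass with all arrays (adjusted p = 0.0744) but did with the block (adjusted p = 0.0284) and without BEGM array 1 (adjusted p = 0.00766). Without BEGM array 1 the list had 3 rises, with Sult1a1 (adjusted p = 0.0116) and Sult2b1 (adjusted p = 0.0013) added, and 1 fall. Among other esterases and epoxide hydrolases 1 of 10 rose, Ephx1 (1.25 ± 0.16; adjusted p = 0.0106), which opens epoxides whose products are then conjugated, and the median was -0.07. Without BEGM array 1 Nceh1 was called lower as well (adjusted p = 0.038). In the list of relatives of the GSTs in fold or membrane family, Ptges, a microsomal prostaglandin E synthase, rose by 1.80 ± 0.28 and the chloride channel protein Clic4 fell by 1.70 ± 0.25, with a median of -0.02 over 9 genes. None of 7 other ALDHs was called by limma, 2 having an unadjusted p under 0.05, against 3377 of all 15037 genes. Their median was 0.09. The largest differences among them were those of Aldh1l1 (0.68 ± 0.16, adjusted p = 0.0532) and Aldh3b1 (-0.48 ± 0.16, adjusted p = 0.145).

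Sensors and target genes were mixed. Of 14 sensors and regulators 1 rose, the retinoid X receptor Rxra (1.96 ± 0.42; adjusted p = 0.0458), and the median was 0.11. The dioxin receptor Ahr was called lower without BEGM array 1 (adjusted p = 0.0432). NRF2 itself, Nfe2l2, was at 14.58, 14.30 and 13.84 on the EpiX arrays, against 13.37, 13.26 and 13.82 on the BEGM arrays, so the groups just failed to overlap, EpiX array 3 being almost level with BEGM array 3, and the difference did not pass (0.75 ± 0.24, adjusted p = 0.126). Of 11 NRF2 target genes outside the families, Srxn1 rose (0.97 ± 0.19; adjusted p = 0.0375) and Txnrd1 fell (-1.05 ± 0.20; adjusted p = 0.0315), with a median of 0.21. Nqo1 was at 15.06, 15.21 and 15.63 on the EpiX arrays, against 14.02, 15.56 and 16.38 on the BEGM arrays, and differed by -0.02, a sign that turned with median centring (0.11). Hmox1 differed by -2.60 ± 0.81 (adjusted p = 0.12) and was called lower with the block (adjusted p = 0.0373) and without BEGM array 1 (adjusted p = 0.00285), where Osgin1 was called lower too (adjusted p = 0.0327).

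Of 13 genes of retinoid handling 1 rose, and the median was -0.19. This was Adh7, an alcohol dehydrogenase of epithelia that can oxidise retinol, the step before the Aldh1a enzymes. It was at 10.96, 9.24 and 9.62 on the EpiX arrays, against 5.92, 6.76 and 6.69 on the BEGM arrays, with a wide gap between the groups. The rise was 3.49 ± 0.46 (SE; adjusted p = 0.0111), or 11.2-fold. With the block the list had 2 rises and 1 fall, and without BEGM array 1 it had 4 rises and 1 fall.

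**Figure D4:**
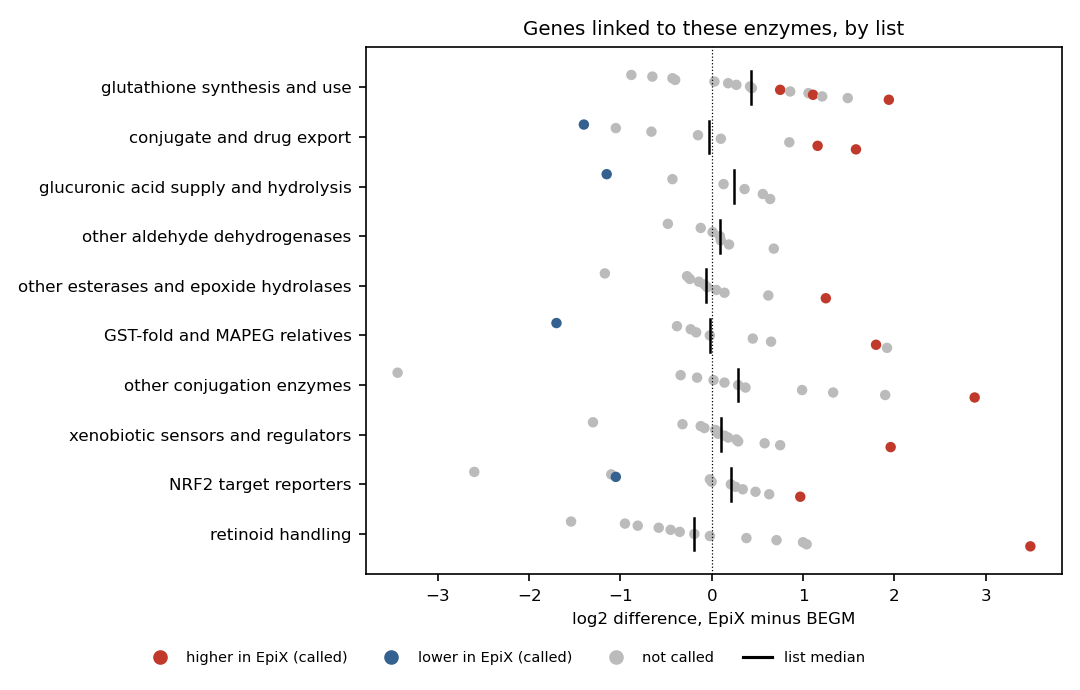
Log2 difference, EpiX minus BEGM, of each measured gene in 10 lists linked to these enzymes, with the list median as a bar; red points rose, blue points fell and grey points were not called. Red points outnumber blue ones, 11 against 4, and the list medians run from -0.19 for retinoid handling to 0.43 for glutathione synthesis and use. Of all genes tested, 2.63% were called higher and 3.15% lower.

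Markers of airway cell types also differed between the media, and in bulk RNA fewer cells of a type and less RNA per cell cannot be told apart. For the marker counts, 2.63% of all genes were called higher and 3.15% lower with all arrays. These shares were 3.94% and 4.39% with the block, and 6.57% and 7.32% without BEGM array 1. Secretory markers, the cells best known for these enzymes, had 3 of 7 measured genes higher and none called lower, with mean list levels of 8.08 to 9.82 on the EpiX arrays and 6.29 to 8.00 on the BEGM arrays. With the block 4 were called, with Lypd2 lost (adjusted p = 0.0531) and Scgb3a1 and Bpifa1 added. The 3 called with all arrays were Pigr (2.34 ± 0.28, SE), Cyp2f4 (1.74 ± 0.30) and Lypd2 (1.2 ± 0.24). The secretoglobin Scgb3a1 had the largest difference, 5.72 ± 1.43, and was at 11.63, 13.33 and 15.75 on the EpiX arrays, against 5.26, 10.27 and 8.01 on the BEGM arrays, with no overlap (adjusted p = 0.0675, and 0.0201 with the block). The club-cell protein Scgb1a1 overlapped, at 8.49, 10.85 and 13.04 on the EpiX arrays, against 9.03, 13.49 and 12.40 on the BEGM arrays. Basal markers had 4 of 8 measured genes higher and 1 lower, with mean levels of 13.23 to 13.45 on the EpiX arrays and 11.68 to 12.16 on the BEGM arrays. The higher ones were Krt15 (4.12 ± 0.71, SE), Aqp3 (4.09 ± 0.22), Bcam (3.11 ± 0.19) and Tp63 (2.15 ± 0.2). Pdpn was the lower one (-2.96 ± 0.21). None of 6 ciliated genes was called by limma, with 3 at an unadjusted p under 0.05, against 3377 of all 15037 genes. The list means were 4.29 to 4.53 on the EpiX arrays and 4.34 to 4.56 on the BEGM arrays. Foxj1 was at 3.78 to 4.62 over all arrays, and Tppp3 was at 5.64, 5.55 and 6.70 on the EpiX arrays, against 4.61, 4.92 and 4.90 on the BEGM arrays, with no overlap (adjusted p = 0.0833). Of 7 leukocyte genes Cd74 was called lower (-1.31 ± 0.27, SE), a call lost with the block (adjusted p = 0.0526). Ptprc was at 3.78 to 4.14 over all arrays, while Cd68 was at 11.36, 11.08 and 9.17 on the EpiX arrays, against 8.65, 9.62 and 10.22 on the BEGM arrays, which overlapped.

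Of 7 measured fibroblast markers none was called by limma with all arrays, and 4 had an unadjusted p under 0.05, against 3377 of all 15037 genes. With the block 3 of the 7 were called lower (Col1a2, Lum and Thy1), against 4.39% of all genes. Without BEGM array 1 there were 4 (Col1a1, Col1a2, Dcn and Lum), against 7.32% of all genes. All 7 had negative differences, and their mean levels were 5.59 to 6.13 on the EpiX arrays and 6.82, 7.48 and 10.24 on BEGM arrays 1, 2 and 3. BEGM array 3, highest in these markers, was also the array highest in Gsta1 and Aldh3a1. The squamous and hillock list had 1 of 8 genes higher, with mean levels of 13.63 to 14.16 on the EpiX arrays and 13.61, 11.93 and 11.57 on BEGM arrays 1, 2 and 3. With the block 3 of its genes were called higher, and without BEGM array 1 there were 6, against 3.94% and 6.57% of all genes. The 1 of 7 smooth muscle and cartilage genes called lower was the contractile-cell protein Cnn1, at 5.20, 5.92 and 5.28 on the EpiX arrays, against 10.59, 13.52 and 13.29 on the BEGM arrays. Its difference, -7.00 ± 0.74 (SE; adjusted p = 0.00649), was the largest in any of the lists. Of 6 endothelial genes none was called by limma with all arrays, and 2 had an unadjusted p under 0.05, against 3377 of all 15037 genes. Esam was called lower without BEGM array 1 (adjusted p = 0.00775). The part of these cell types in the enzyme differences was not tested.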

How the data were processed

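The deposited table gives signals on a log2 scale for 24834 probe sets on 6 arrays, from 2.62 to 18.66. Of software, the submitters' processing notes list Transcriptome Analysis Console. The sources used here do not give the normalization, log base or centring. Folds assume base 2. Of the probe sets, 15049 had 1 gene symbol in the platform annotation, 8139 had either none or more than 1, and 1646 were controls. Only those with 1 symbol, called named here, entered the main fit. The brightest probe set per gene was kept, leaving 15037 genes, and all 52 members had 1 probe set whose gene ID matched RefSeq. A linear model with medium as its term was fitted to all genes with limma 3.58.1 in R 4.3.3 (lmFit, eBayes; 2-sided), EpiX minus BEGM, with Benjamini-Hochberg adjustment over all genes. The fit was tested on simulated data with independent arrays and the same spread per gene in both media. That test did not cover unequal spread between media or shared lines. Local alignments were made with Biopython 1.88, plots with matplotlib 3.10.9.

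Every called member was named, with the brightest member of each family and uncalled members differing by 1 log2 unit or more. Other members are named with values, ranges or counts. From each linked list up to 4 called genes were named, or 2 where none was called. Nfe2l2, Nqo1, Hmox1, genes called only in an alternative, Papss2 and single markers were chosen after their values were seen. Members and lists were chosen with earlier results of these data known. After subtraction of group means, arrays with a shared number correlated at 0.318, -0.0139 and 0.323 for numbers 1, 2 and 3, and other pairs at -0.366 to 0.156. Since each line was divided between the media, a blocked fit on the sample number was an alternative. Others were quantile normalization, median centring, leaving out the dimmest 25% of genes, trended robust variance, array weights (statmod 1.5.0), means of probe sets, testing all non-control probe sets, and leaving out arrays.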

Additional observations from a re-analysis of the deposited data

How the results depend on the processing

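The 9 members called kept their call with the replicate block, quantile normalization, median centring, the dimmest 25% of genes left out, a trended robust variance, array weights, means of probe sets and all non-control probe sets tested. The count of members lower in EpiX, 0 in the report, was 1 (Aldh1a2) with the replicate block and 1 with array weights, and so was the count of ALDHs called. Linked list genes called numbered 15 in the report and 31 with array weights, against 869 and 1987 of all 15037 genes. With arrays left out, the calls over all genes ran from 0 (both arrays of number 2 left out) to 2089 of 15037 (BEGM array 1 left out). When single arrays or both arrays of a number were left out, so that fewer samples remained, the members higher numbered 0 to 10, the members lower 0 to 2, the GSTs called 0 to 5, the MGSTs 0 to 1, the carboxylesterases 0 to 4, the ALDHs 0 to 2 and the linked genes 0 to 29.

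Several uncalled members changed sign. With array weights the differences were 0.11 for Aldh6a1, -0.06 for Ces5a, -0.06 for Gsta3 and -0.01 for Gstp3. With median centring, which moved the median of all genes to 0.13, they were 0.05 for Ces1a, 0.09 for Gstk1, 0.05 for Gstm1, 0.09 for Ugt2b37 and 0.11 for Nqo1, and with quantile normalization 0.03 for Ces1a. With arrays left out, the ranges that crossed 0 were -0.08 to 1.43 for Aldh1a3, -2.55 to 0.69 for Aldh3a1, -0.41 to 0.13 for Aldh6a1, -0.68 to 0.03 for Aldh8a1, -0.10 to 0.57 for Aldh9a1, -0.16 to 0.03 for Ces1a, -0.11 to 0.11 for Ces4a, -0.15 to 0.12 for Ces5a, -0.07 to 0.64 for Gsta3, -0.34 to 0.19 for Gstk1, -0.87 to 0.42 for Gstm1, -0.04 to 0.38 for Gstm3, -0.07 to 0.05 for Gstp3, -0.03 to 0.57 for Gstt4, -0.16 to 0.75 for Mgst3, -0.02 to 0.36 for Ugt2b10, -0.12 to 0.02 for Ugt2b37 and -0.67 to 0.51 for Nqo1. The cause was not tested.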
